A study of Mus musculus with 12 samples.

Results

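The expression of 10 genes of tissue macrophages was followed in the E14.5 mouse gonad: Csf1r, Emr1, Cx3cr1, Cd68, Mrc1, C1qa, C1qb, C1qc, Tyrobp and Fcer1g. They are among the 29182 genes represented on the array, were found by the gene name the array gives their probes, and were chosen as a set after results of these arrays had been seen. Emr1 is the older name of Adgre1, which encodes F4/80. RNA was measured on 12 single-colour Agilent arrays, 3 for each of 4 groups, and each RNA came from 1 pair of gonads of a mixed background. The dams of all groups had received tamoxifen, first at E9.5 and again at E10.5. Control testes carried Smad4 flox/+ with Stella-MerCreMer, a tamoxifen-inducible Cre that acts in germ cells. Control ovary 1 was Smad4 flox/+ with that Cre, control ovary 2 was Smad4 flox/+ without it, and control ovary 3 was Smad4 flox/flox without it. The Smad4 (Stella) ovaries were Smad4 flox/flox with the Cre, and all groups named so far were Stra8+/-. The DKO ovaries were Smad4 flox/flox with the Cre and Stra8-/-, so that Stra8 was inactivated in the whole embryo, while the deletion of Smad4 was directed at germ cells and varied in efficiency. The Cre was not directed at somatic cells or macrophages.

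Macrophages reach the fetal gonad from the yolk sac and later from fetal monocytes. They are known there for clearing dying cells and for a part in the remodelling of vessels and cords. The genes followed here cover the main steps of that work. Csf1r receives the growth factors Csf1 and Il34, on which the cells depend, Cx3cr1 receives fractalkine, and Emr1 is an adhesion receptor used as a surface marker of the lineage. Cd68 is a glycoprotein of late endosomes and lysosomes, and Mrc1 is the mannose receptor, which takes up glycoproteins. C1qa, C1qb and C1qc encode the chains of C1q, the recognition molecule of the classical complement pathway, which also tags dying cells. Tyrobp (DAP12) and Fcer1g are adaptors that pass on signals of Trem2, Fc receptors and other receptors through ITAM motifs.

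The genes of the C1q chains lie side by side, and their probes span 15891 bases of chr4 in mm9, the build of the array design. The first 30 of the 60 bases of each probe are shown because the C1q values below rest on 1 probe per gene and on these probes being distinct. The longest run of identical bases between any pair of the whole probes was 5 bases for C1qa and C1qb and 6 bases for each of the other pairs. The C1qa probe is at chr4:136452409-136452468, the C1qb probe at chr4:136436578-136436637 and the C1qc probe at chr4:136445766-136445825, all on the minus strand. Their exon and UTR annotation was not used here.
C1qa: ccggccagctttctcagccattcggcagaa
C1qb: attctggggactacggggctacacagaaag
C1qc: tctgggaaccacctaatggtattattcctg

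Promoter sequence from RefSeq (GRCm38.p6) was at hand for 6 of the 10 genes: Fcer1g, Mrc1, C1qb, C1qc, Cx3cr1 and Cd68. PU.1, the product of Spi1 and a factor macrophages require, is known to bind GAGGAAGT. Short motifs, 4 in all, were counted on both strands of the 250 bases before the start, after the sequences and the expression values had been seen. GAGGAA was present in 4 of the 6 and in 23.3% of all 32851 promoters, and GGAAGT in 3 of the 6 and in 19.7% of all. The whole GAGGAAGT, which overlaps both, was present in C1qc alone among the 6 and in 2.44% of all, and TATAAA was present in 0 of the 6 and in 12.4% of all. The stretches below hold the GAGGAA match nearest to the start in each of the 4 promoters, written on the strand of the gene, with the motif or its reverse complement TTCCTC in capitals. The match lies 219 bases before the start in Cd68, 29 in Mrc1, 24 in C1qb and 187 in C1qc. A match is a run of letters only, and no binding was measured. The positions in order are chr11:69666366-69666419 (minus), chr2:14229355-14229408 (plus), chr4:136886201-136886254 (minus) and chr4:136893078-136893131 (minus).
Cd68: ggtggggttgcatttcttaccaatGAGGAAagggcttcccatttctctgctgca
Mrc1: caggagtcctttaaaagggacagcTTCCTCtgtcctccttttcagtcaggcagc
C1qb: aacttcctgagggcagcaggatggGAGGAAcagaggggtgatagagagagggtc
C1qc: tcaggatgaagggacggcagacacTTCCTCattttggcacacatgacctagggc

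A level is given as log2 of the processed spot intensity minus the 75th percentile of its array, so that 0 stands for that percentile and a unit for a factor of 2. Levels of different probes cannot be set against each other, and comparisons are of 1 gene, or of the sum over a fixed list of genes, between arrays. The 75th percentile was at an intensity of 476 to 997, the share of probes well above background ranged from 58.8% in control ovary 1 to 70.5% in control ovary 2, and 0 spots were saturated. In the ovaries, Sertoli marker levels on a linear scale summed to 0.723 to 1.15 over 5 genes, against 41.9 to 52.6 in the testes. The 1 Stra8 probe stood at 6.16 to 6.71 in control ovaries, 6.28 to 6.41 in Smad4 (Stella) ovaries, 5.28 to 5.61 in DKO ovaries and -2.98 to -2.32 in testes. It was lower in all 3 DKO ovaries than in any other ovary and still bright, and where it lies relative to the deleted part of Stra8 is not given in the sources used here. One Smad4 probe stood at 4.22 to 4.30 in control ovaries, 4.03 to 4.23 in Smad4 (Stella) and 3.76 to 4.15 in DKO ovaries, and the levels of the other overlapped between all groups.

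The 10 genes have 15 probes, and 12 of these, with at least 1 for every gene, were bright enough to be used, which asked for a signal well above background on all arrays of a group. One probe each of Csf1r, Emr1 and Cx3cr1 was too dim to be used. The retained probes were above background on all 12 arrays, except that of Cx3cr1, which was not above background in control ovary 2.

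In DKO ovaries Cd68 was 1.65-fold higher than in control ovaries, C1qa 1.29-fold and C1qc 1.20-fold, each without overlap of the arrays, although those of C1qc nearly met. Csf1r, the receptor that defines the lineage, differed by 1.12-fold with overlapping arrays. Over the 10 genes the median log2 difference was 0.33, with 9 higher and Mrc1 lower, against a median of 0.00 over all 18844 genes tested. All 10 were higher without scaling between arrays and with normexp background correction, where the median of all genes moved to 0.19 and 0.26. These differences are given as a description with no test of their own, because the genes were chosen with results of the same arrays known. The genome-wide fit also covered these genes, and its calls for them are given below with nothing read from them. In RNA of whole gonads, a change in the number of macrophages and a change in the RNA per macrophage cannot be told apart.

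For Csf1r, control ovaries 1 to 3 gave -2.49, -2.10 and -2.45, Smad4 (Stella) ovaries gave -2.10, -2.30 and -2.15, DKO ovaries gave -2.26, -2.21 and -2.07, and testes gave -2.34, -2.13 and -1.99. All 4 groups overlapped, and the group means ran from -2.35 in control ovaries to -2.15 in testes. Against control ovaries the difference was 0.17 in DKO ovaries, 0.16 in Smad4 (Stella) ovaries and 0.19 in testes, each with an SE of 0.13. Its 2 retained probes gave -0.12 and 0.13 for DKO against Smad4 (Stella) ovaries, so that even the sign depended on the probe there.

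For Emr1, control ovaries 1 to 3 gave 0.32, -0.20 and 0.45, Smad4 (Stella) ovaries gave -0.03, -0.23 and -0.17, DKO ovaries gave 1.82, 0.31 and 0.17, and testes gave -0.73, -0.57 and -0.87. DKO ovary 1 was far above every other array, and the other DKO ovaries lay among the control ovaries. The difference of DKO from control ovaries was 0.57 (SE 0.36), and it was 0.05 without DKO ovary 1. The testes lay below all 9 ovaries, and their difference from control ovaries was -0.91 (SE 0.36), between -1.11 and -0.79 with any 1 array left out.

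For Cx3cr1, control ovaries 1 to 3 gave -3.63, -8.05 and -3.06, Smad4 (Stella) ovaries gave -2.68, -2.53 and -2.86, DKO ovaries gave -3.71, -2.58 and -2.52, and testes gave -2.72, -3.30 and -2.94. The value of -8.05 is that of control ovary 2, where the probe was not above background. It sets the control mean, which was -4.91 with all arrays and -3.35 ± 0.40 (SD, n = 2) without it. Against control ovaries the difference of DKO ovaries was 1.97 (SE 1.02), that of Smad4 (Stella) ovaries 2.22 (SE 1.02) and that of testes 1.93 (SE 1.02). Without control ovary 2 these fell to 0.41, 0.66 and 0.36, and what lowered the probe on that array was not tested.

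For Cd68, control ovaries 1 to 3 gave -3.14, -3.07 and -3.22, Smad4 (Stella) ovaries gave -3.09, -3.24 and -3.53, DKO ovaries gave -2.05, -2.58 and -2.65, and testes gave -3.01, -2.66 and -2.45. All DKO ovaries lay above all control and all Smad4 (Stella) ovaries, and they overlapped the testes. DKO ovaries differed from control ovaries by 0.72 (SE 0.19), by 0.53 without DKO ovary 1 and by up to 0.83 with any other array left out. From Smad4 (Stella) ovaries they differed by 0.86 (SE 0.19), which is 1.82-fold, and the testes differed from control ovaries by 0.44 (SE 0.19).

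For Mrc1, control ovaries 1 to 3 gave -1.42, -1.11 and -0.87, Smad4 (Stella) ovaries gave -0.93, -1.51 and -1.65, DKO ovaries gave -1.09, -1.56 and -1.21, and testes gave -1.38, -1.43 and -1.78. Every group overlapped its neighbours. The difference of DKO from control ovaries was -0.15 (SE 0.22), but 0.03 without scaling between arrays and 0.05 with normexp background correction. In these settings the median of all genes moved to 0.19 and 0.26, so that Mrc1 stayed below it. The difference of Smad4 (Stella) from control ovaries was -0.23, but 0.20 without scaling, where the median of all genes was 0.40. Testes differed from control ovaries by -0.40 (SE 0.22 each).

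**Figure D1:**
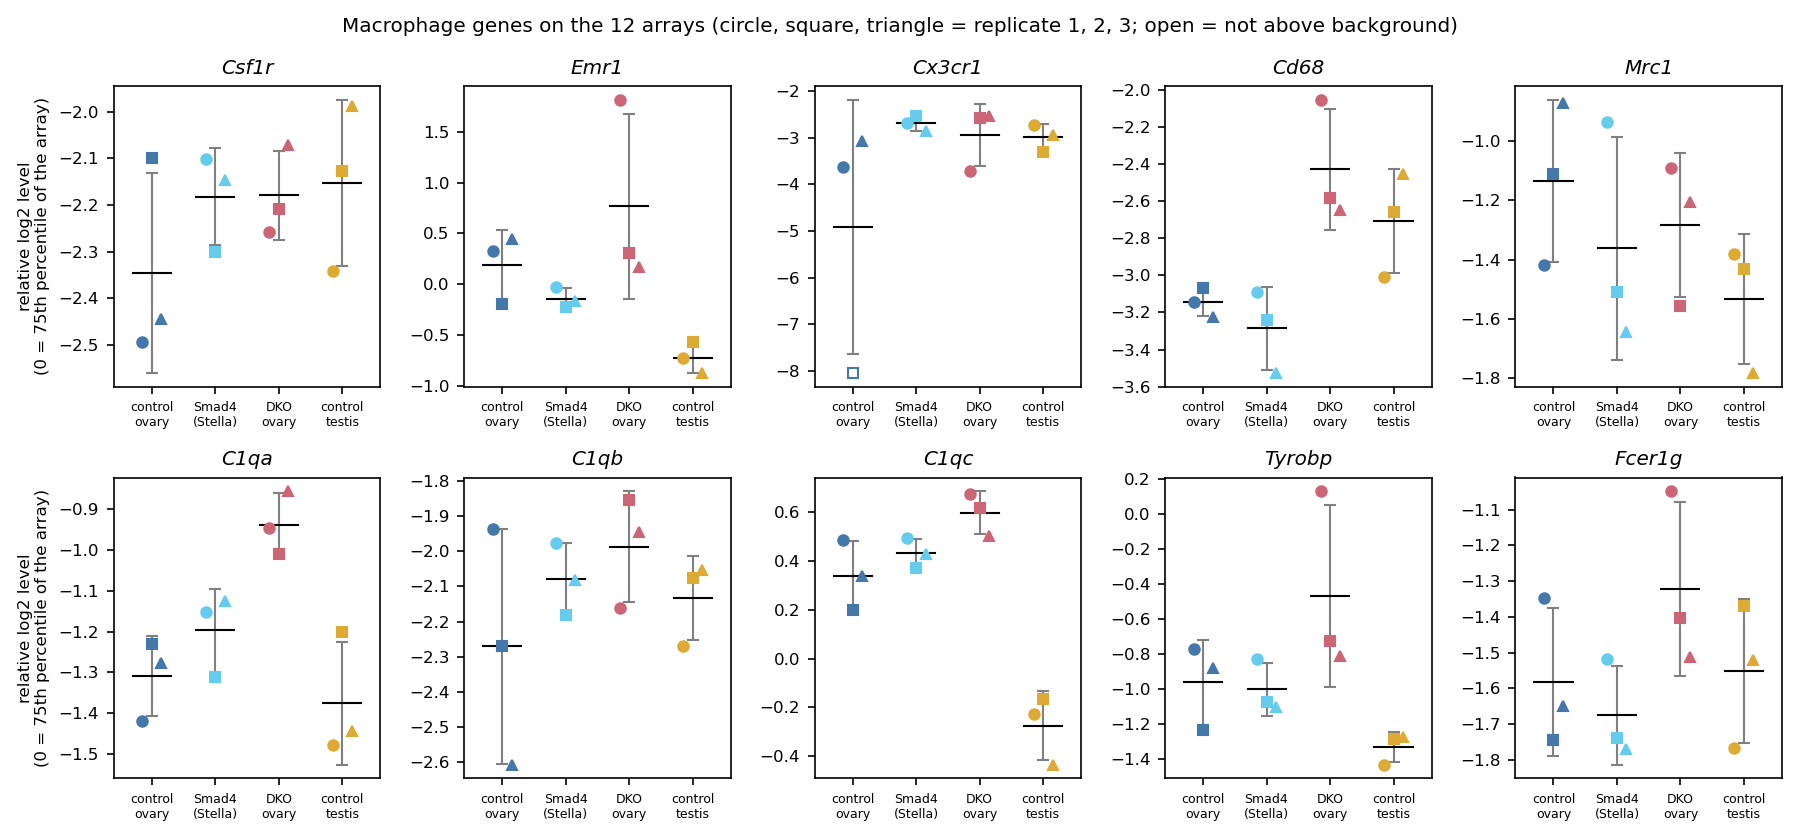
Relative log2 level (0 is the 75th percentile of the array) of the 10 macrophage genes in control ovaries, Smad4 (Stella) ovaries, DKO ovaries and control testes. Points are single arrays, bars the group mean and SD (n = 3), and the open point is control ovary 2 at -8.05 for Cx3cr1, not above background. DKO ovary 1 stands apart at 1.82 for Emr1 and 0.13 for Tyrobp, while the Cd68 levels of all DKO ovaries lie above those of the other ovaries.

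Differences of the C1q chains between the groups of ovaries were small. For C1qa, control ovaries 1 to 3 gave -1.42, -1.23 and -1.28, Smad4 (Stella) ovaries gave -1.15, -1.31 and -1.12, DKO ovaries gave -0.95, -1.01 and -0.86, and testes gave -1.48, -1.20 and -1.45. The DKO ovaries were above all 9 other arrays, by 0.37 (SE 0.11) against control ovaries and by 0.26 (SE 0.11) against Smad4 (Stella) ovaries. For C1qb, control ovaries 1 to 3 gave -1.94, -2.27 and -2.61, Smad4 (Stella) ovaries gave -1.98, -2.18 and -2.08, DKO ovaries gave -2.16, -1.85 and -1.95, and testes gave -2.27, -2.07 and -2.05. It overlapped in every comparison, and DKO differed from control ovaries by 0.28 (SE 0.16). For C1qc, control ovaries 1 to 3 gave 0.49, 0.20 and 0.34, Smad4 (Stella) ovaries gave 0.49, 0.37 and 0.43, DKO ovaries gave 0.68, 0.62 and 0.50, and testes gave -0.23, -0.16 and -0.43. Every testis lay below every ovary and every DKO ovary above every other array, although the lowest DKO ovary (0.50) nearly met the highest control and Smad4 (Stella) ovaries (0.49 each). The difference from control ovaries was 0.26 (SE 0.11) in DKO ovaries and -0.62 (SE 0.11) in testes, where C1qa and C1qb, with -0.07 and 0.14, overlapped the control ovaries.

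For Tyrobp, control ovaries 1 to 3 gave -0.77, -1.24 and -0.88, Smad4 (Stella) ovaries gave -0.83, -1.07 and -1.11, DKO ovaries gave 0.13, -0.72 and -0.81, and testes gave -1.43, -1.29 and -1.27. As for Emr1, DKO ovary 1 was highest by a wide margin and all testes lay below all control ovaries. For Tyrobp the highest testis (-1.27) and the lowest control ovary (-1.24) nearly met. The difference of DKO from control ovaries was 0.49 (SE 0.23), and 0.19 without DKO ovary 1. Testes differed from control ovaries by -0.37 (SE 0.23). For Fcer1g, control ovaries 1 to 3 gave -1.35, -1.75 and -1.65, Smad4 (Stella) ovaries gave -1.52, -1.74 and -1.77, DKO ovaries gave -1.05, -1.40 and -1.51, and testes gave -1.77, -1.37 and -1.52. It overlapped between DKO and control ovaries, which differed by 0.26 (SE 0.16), and did not overlap between DKO and Smad4 (Stella) ovaries, although the lowest DKO ovary and the highest Smad4 (Stella) ovary nearly met.

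For DKO against control ovaries, Cd68 alone passed an adjusted p under 0.05 and 1.5-fold in the genome-wide limma fit, which 6.69% of all genes passed in that direction, 7.98% in the other and 14.7% in either. Cd68, C1qa and C1qc were higher without overlap and 0 genes lower, against 16.2% and 16.7% of all genes, or 32.9% in either direction. Cd68 was not called without DKO ovary 1 or without control ovary 3.

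For DKO against Smad4 (Stella) ovaries the median was 0.21 with 9 of 10 higher, against 0.01 over all genes. That median was -0.03 in the table without scaling between arrays, where the median of all genes was at -0.23, so that the 10 genes stood 0.20 above it on either scale. Cd68 alone was called, against 4.38% of all genes higher, 4.06% lower and 8.45% in either direction, and it was not called without Smad4 (Stella) ovary 2 or 3. Cd68, Emr1, C1qa, C1qc, Tyrobp and Fcer1g were higher without overlap and 0 genes lower, against 16.8% and 14.4% of all genes, or 31.2% in either direction.

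The comparisons of Smad4 (Stella) ovaries and of testes share their controls with that of DKO ovaries. Smad4 (Stella) ovaries differed from control ovaries by a median of 0.03 with 5 higher and 5 lower, but by 0.45 with all 10 higher without scaling, where all genes moved to 0.40, by -0.01 with normexp and by 0.30 with the slide as a block, although no slide held both groups. Of the 10, 0 were called there, as were 0.133% of all genes higher, 0.138% lower and 0.271% in either direction. Cx3cr1 alone did not overlap, being higher, against 12.5% of all genes higher, 15.6% lower and 28.1% in either direction.

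For testes against control ovaries the median was -0.02 with 5 higher and 5 lower, and it was 0.01 after quantile normalization and 0.05 without scaling. C1qc was called lower, as were 16.8% of all genes, while 17.2% were called higher and 34% in either direction, and it was not called without control testis 3 or control ovary 1. Calls were also gained with 1 array left out. Emr1 was called lower without control ovary 2 (-1.11) and Cd68 higher without control testis 1 (0.59). Cx3cr1 was called higher without control ovary 3 (2.85), with its dim control array still included. Emr1, C1qc and Tyrobp were lower without overlap and Cd68 higher, against 28.5% and 29.9% of all genes, or 58.4% in either direction. Since the genes were chosen on these arrays, nothing is read from these counts.

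**Figure D2:**
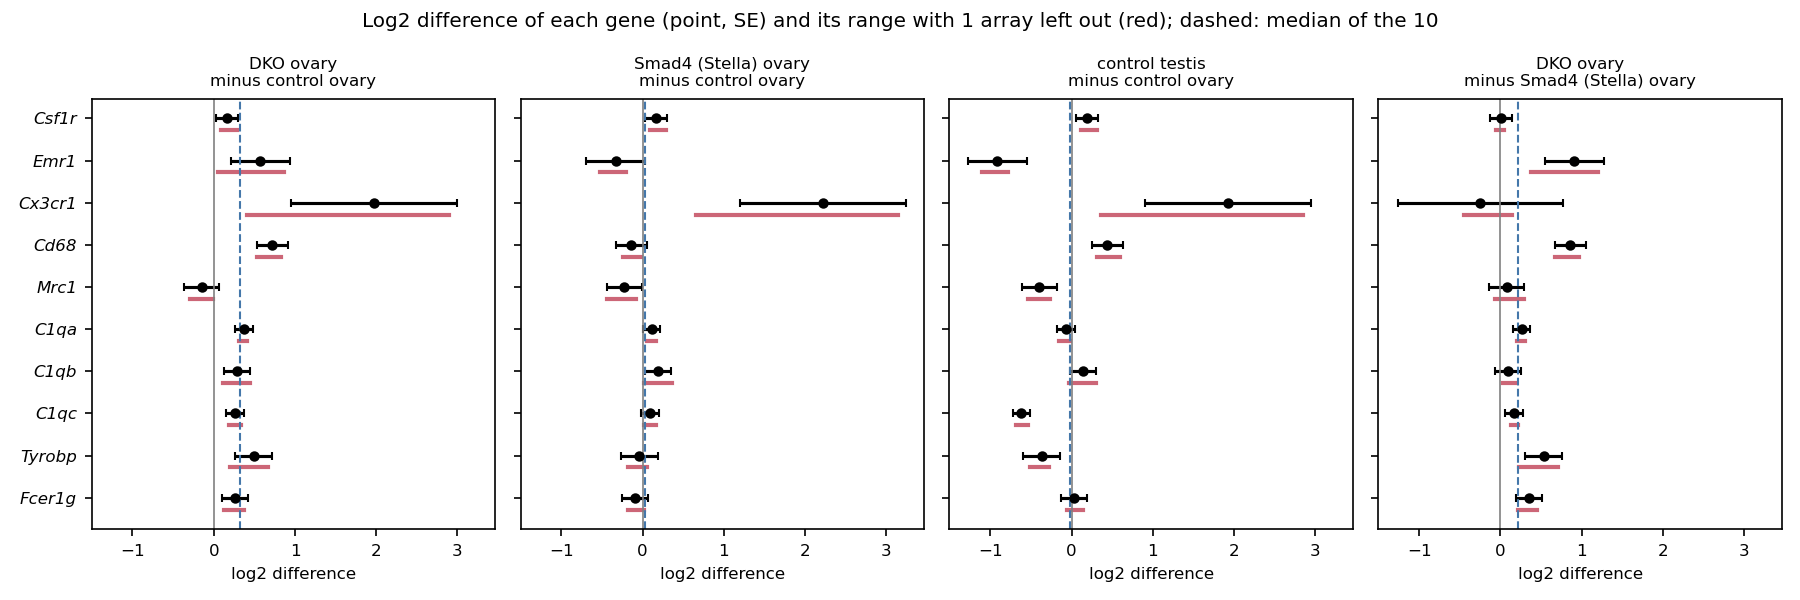
Log2 difference of each macrophage gene in the 4 comparisons. Points are estimates with their SE, red lines the range with any 1 array left out, and the dashed line the median of the 10 genes (0.33, 0.03, -0.02 and 0.21 from left to right). The red line of Emr1 between DKO and control ovaries reaches down to 0.05 and that of Cx3cr1 spans 0.41 to 2.90, while that of Cd68 stays between 0.53 and 0.83.

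The groups were spread unevenly over 3 slides, and on each slide some groups met. On the slide with DKO ovaries 1 and 2 and control ovaries 2 and 3 the median difference of the 10 genes was 0.45, with 9 higher and Mrc1 lower at -0.33. Cd68 differed by 0.83, Emr1 by 0.93, Tyrobp by 0.76 and C1qa by 0.28 on that slide. On the slide with DKO ovary 3 and all Smad4 (Stella) ovaries the median was 0.16 with all 10 genes higher, among them Cd68 by 0.64, Emr1 by 0.31 and C1qc by 0.07. Where the testes met control ovary 1 the median was -0.16 with 4 higher and 6 lower, and Emr1 at -1.04, C1qc at -0.76, Tyrobp at -0.56 and Cd68 at 0.44 had the signs they had over all slides, while C1qa at 0.04, C1qb at -0.20 and Fcer1g at -0.20 had the opposite sign. No slide held both control and Smad4 (Stella) ovaries.

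One array carried much of what DKO ovaries showed. DKO ovary 1 was the highest of the 12 arrays for 5 of the 10 genes (Emr1, Cd68, C1qc, Tyrobp and Fcer1g), while DKO ovary 3 was highest for C1qa and Cx3cr1 and DKO ovary 2 for C1qb. Csf1r was highest in control testis 3 and Mrc1 in control ovary 3. Of 76 other macrophage genes described below, 30, or 39.5%, were also highest in DKO ovary 1, against 12.05% of all genes, a count made after the values had been seen. Among them was Ptprc (CD45), carried by all leukocytes, at -0.78 there and between -2.54 and -1.85 on the other arrays. Left without DKO ovary 1 and control ovary 2, a choice also made after seeing the data, the median of the 10 genes between DKO and control ovaries was 0.24 with 8 higher. Emr1 was then at -0.15 and Tyrobp at 0.06, and Cd68 at 0.57 and C1qa at 0.42.

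**Figure D3:**
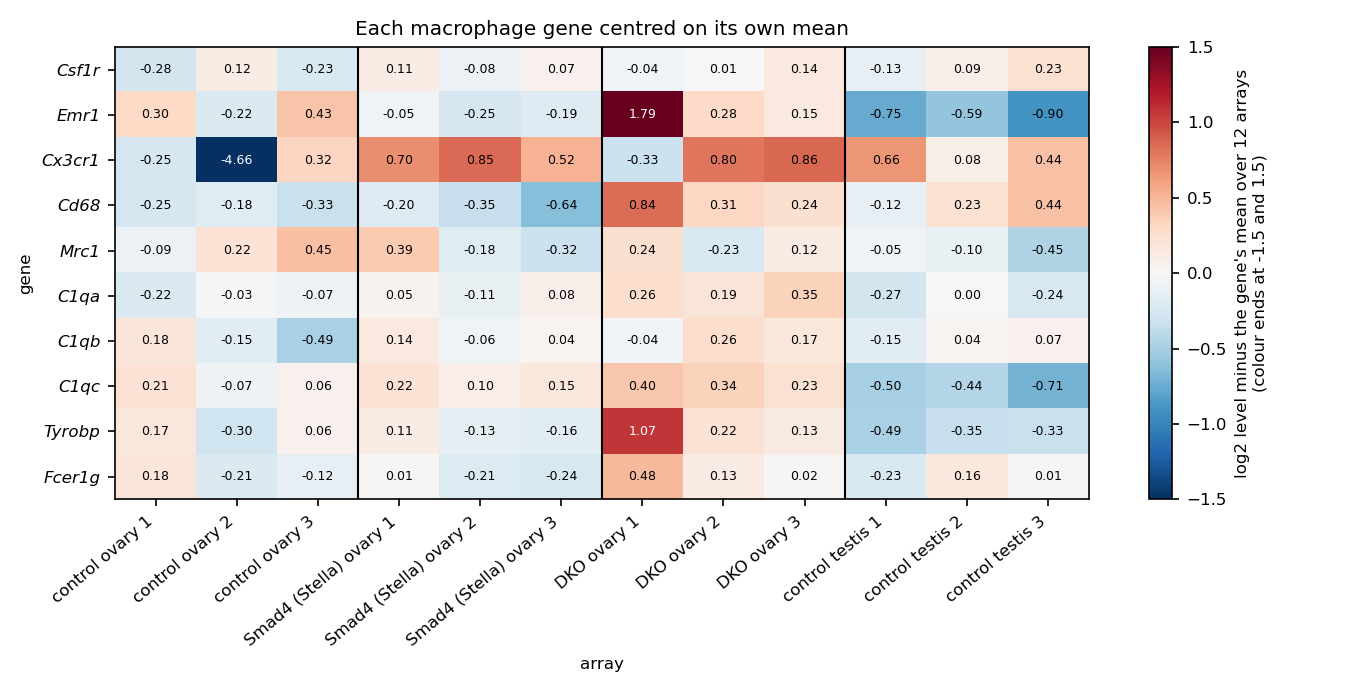
Level of each macrophage gene on each array minus its mean over the 12 arrays (log2, colour from -1.5 to 1.5, columns by group). DKO ovary 1 is the highest array for Emr1, Cd68, C1qc, Tyrobp and Fcer1g, and control ovary 2 holds the one deep value, that of Cx3cr1.

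The 10 genes did not vary together as a block. Over the 12 arrays the median Pearson correlation of their 45 pairs was 0.29, with 33 above 0, and it was 0.12 with 27 above 0 once the group means had been removed. Emr1 and Tyrobp were most alike, with r = 0.96 and 0.95 after removal of group means, and the shared high value of DKO ovary 1 enters both. Csf1r and Emr1, both receptors of the same cells, stood at -0.35, and Mrc1 and C1qb at -0.46. Both genes of a pair were read on the same arrays with the same scaling, and these values are a description. Without Cx3cr1, whose dim array weighs on every mean it enters, the median was 0.36 over 36 pairs, with 27 above 0.

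Genes elsewhere on the array were ranked by their correlation with the mean of the 10 centred levels. Over the 12 arrays the most alike were Rcor2 (r = 0.95), Shfl (0.92), Zfyve28, Vil1, a transcript with no symbol in the reference table, Nat8l, Dusp2, a probe without a gene name, Cox11 and Ddx19b (0.91). With group means removed they were Adamts14 (0.96), Mterfd1, Spata32, Slc16a6, Dnajc18, Rcor2, Ryr1, another transcript with no symbol, Olfr1226 and Erbb3 (0.93). None of these is on the macrophage lists, and the mean they follow carries the dim Cx3cr1 value. The ranking without removal of group means was therefore repeated in ways chosen after seeing the data. Without DKO ovary 1, Rcor2 (0.93) was again among the most alike. Without Cx3cr1 among the 10 genes, Galnt12 (0.95) and Fcgr3 (0.94), a low-affinity receptor for IgG that signals through Fcer1g, led, and Epb41l3 and the haematopoietic actin regulator Nckap1l (0.93 each) were among the first 10. Over all arrays and all 10 genes, the 76 listed macrophage genes had a median r of 0.31, against -0.04 over 18812 genes.

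A further 10 lists of genes with roles in or around macrophages, 89 genes in all, were drawn up without regard to how each gene moved but with earlier results of these arrays known, and 76 of the genes were bright enough to be tested. Among the 13 that were not were Spi1, which was above background on 4 arrays, the sialoadhesin gene Siglec1 and the cytokine gene Tnf on 0, and Timd4 on 2. In DKO against control ovaries, 6 of the 76 (7.89%) rose and 1 (1.32%) fell, against 6.69% and 7.98% of all genes. The median difference was 0.16 with 52 of 76 above 0, against a median of 0.00 and 50.4% above 0 over all genes. At an unadjusted p under 0.05 there were 20 of the 76. The share of all genes at that threshold was not counted, so that nothing is read from such counts here or below. Of the 6 that rose, 3 belong to the 12 receptors and kinases that work with ITAM adaptors, 1 to the 15 genes of uptake and lysosome, 1 to the 9 resident macrophage surface genes and 1 to the 7 complement genes. Of the 8 leukocyte genes common to blood lineages, 7 myeloid transcription factors, 3 ligands, 6 monocyte and granulocyte genes and 5 cytokines and chemokines, 0 passed the limma test at an adjusted p under 0.05 and 1.5-fold. At an unadjusted p under 0.05 these lists held 1, 2, 0, 0 and 2 genes. Summed on a linear scale, the 6 monocyte and granulocyte genes stood at 1.25 to 8.83 in control ovaries and 1.18 to 7.03 in DKO ovaries. S100a9, one of the 6, had an SD of 1.70 in control and 2.28 in DKO ovaries, while Ccr2 had 0.08 and 0.35. With such spread inside the groups, 0 calls on that list do not show that the RNA of these cells was unchanged.

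For Ms4a7, a membrane protein of tissue macrophages, control ovaries 1 to 3 gave -2.73, -2.74 and -2.77, Smad4 (Stella) ovaries gave -2.31, -2.54 and -2.38, and DKO ovaries gave -1.81, -1.74 and -1.95. The groups did not overlap, and the rise in DKO over control ovaries was 0.92 (SE 0.10, limma adjusted p = 0.00013). Plcg2, the phospholipase that acts below Syk, rose by 1.31 (SE 0.30, limma adjusted p = 0.0107), with control ovaries at 2.23, 1.09 and 1.24 and DKO ovaries at 3.05, 2.99 and 2.47. Pik3cd, a catalytic subunit of PI3-kinase in leukocytes, rose by 1.21 (SE 0.30, limma adjusted p = 0.0145), and its DKO ovaries at 1.66, 1.02 and 0.26 were widely spread. Vav1, an exchange factor below these receptors that was above background in 2 of 3 control ovaries, rose by 0.74 (SE 0.18, limma adjusted p = 0.0155). The complement component C3 rose by 0.71 (SE 0.23, limma adjusted p = 0.0467). Trem2, the main receptor that uses Tyrobp, differed by 0.57 and the macrophage actin binder Aif1 by 0.41, with adjusted p of 0.0120 and 0.0215 in limma and under 1.5-fold in both cases. Without DKO ovary 1 the call of C3 (then 0.50) was lost, and without it and control ovary 2 those of Plcg2 (0.99) and Pik3cd (0.83) as well, while Ms4a7, Vav1 and H2-Ab1 still passed. The call of Vav1 was also lost without DKO ovary 3 (0.54) or control ovary 3 (0.70), and that of C3 without any one of DKO ovary 3 and the 3 control ovaries (0.52 to 0.81).

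H2-Ab1, the beta chain of an MHC class II molecule, was the one listed gene that fell. Control ovaries 1 to 3 gave -2.45, -1.81 and -1.86, Smad4 (Stella) ovaries gave -2.44, -1.76 and -1.98, DKO ovaries gave -4.99, -5.30 and -5.34, and testes gave -5.50, -5.10 and -5.29. DKO ovaries and testes lay together, far below both other groups. The fall in DKO against control ovaries was -3.17 (SE 0.22, limma adjusted p = 1.00e-05), and its 4 probes gave -2.02 to -3.83. The mean was -5.21 in DKO ovaries and -5.30 in testes, while the background bound in testes, as taken for Foxl2 below, averaged -5.83. That close to background, the sizes of the falls of H2-Ab1 in DKO ovaries and testes are uncertain. On the shared slides H2-Ab1 differed by -3.31 for DKO against control ovaries, -3.28 for DKO ovary 3 against Smad4 (Stella) ovaries and -2.84 for testes against control ovary 1. Other class II genes were not called: H2-Eb1 differed by -0.07 and Cd74 by 0.19 between DKO and control ovaries, with adjusted p of 0.892 and 0.686 in limma. Ciita, also on that list, had a lower mean in DKO ovaries (-7.72) than in control ovaries (-6.52). It was not above background in the control ovaries, so that the size of its difference is uncertain. With normexp background correction H2-Ab1 did not pass in any of these comparisons, with -1.02 for DKO against control ovaries, -0.96 for DKO against Smad4 (Stella) ovaries and -1.34 for testes against control ovaries, and Ms4a7 (0.89) did not pass between DKO and control ovaries.

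**Figure D4:**
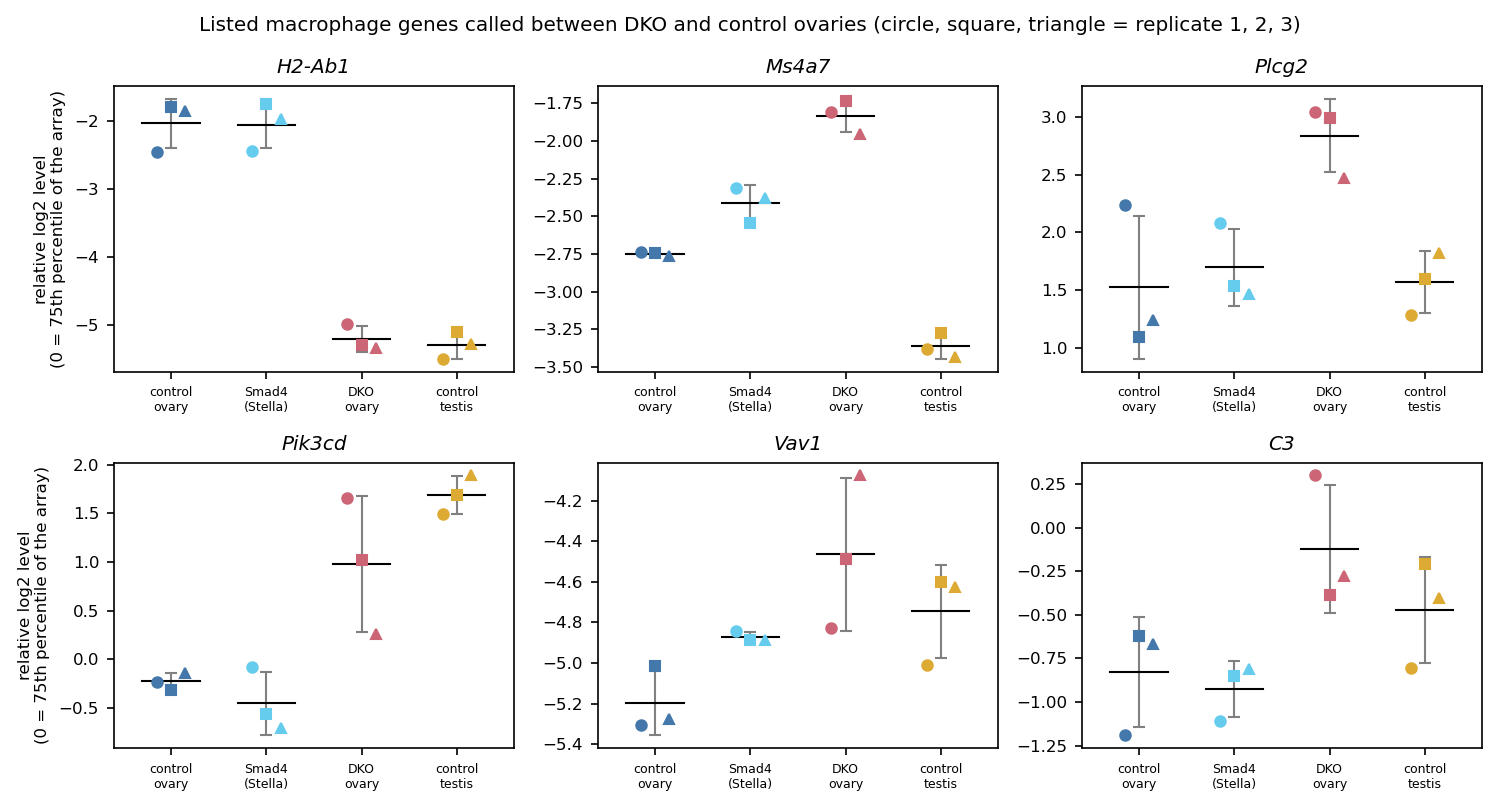
Relative log2 level of 6 listed macrophage genes called between DKO and control ovaries, in order of p. Points are single arrays in 4 groups, bars the group mean and SD (n = 3). H2-Ab1 lies near -5 in DKO ovaries and testes and near -2 in the other ovaries, while Ms4a7 is lowest in testes and highest in DKO ovaries and Pik3cd is highest in testes.

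For DKO against Smad4 (Stella) ovaries, 4 of the 76 (5.26%) rose and 2 (2.63%) fell, against 4.38% and 4.06% of all genes. There were 23 at an unadjusted p under 0.05, and the median was 0.24, against 0.01 over all genes. Pik3cd rose by 1.44 (limma adjusted p = 0.0120), Plcg2 by 1.14 (0.0348) and C3 by 0.80 (0.0441). H2-Ab1 fell by 3.15 (3.19e-05). Nr1h3, the lipid-sensing receptor LXR alpha, differed by -1.03 (0.0262), but by 0.36 with normexp background correction, and its call was lost with the replicate number or the slide as a block and without DKO ovary 1 (-0.85) or Smad4 (Stella) ovary 2 (-1.02) or 3 (-0.90). The number of calls was 2 without DKO ovary 1 or without Smad4 (Stella) ovary 2, 10 without DKO ovary 3, and 1 with the slide as a block. Between Smad4 (Stella) and control ovaries, limma called 0 of the 76 in either direction at an adjusted p under 0.05 and 1.5-fold, with 6 at an unadjusted p under 0.05, and the methods' t-test gave 2, both lower, at its unadjusted threshold and 0 after adjustment. The median there was -0.03, against -0.02 over all genes.

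Between testes and control ovaries, where 34% of all genes were called, 9 of the 76 (11.8%) were higher in testes and 18 (23.7%) lower, against 17.2% and 16.8% of all genes. Of the myeloid transcription factor genes, Irf8 was higher in testes by 1.48 and Cebpa by 2.99, with adjusted p of 6.10e-07 and 4.63e-06 in limma. Across that list of 7, 2 were higher and 3 lower. Irf5, another of its members, was lower by -0.96 (limma adjusted p = 0.000372). Runx1, needed for blood stem cell formation, was at -2.97 (limma adjusted p = 6.16e-07), but its 2 probes gave -0.44 and -5.50. Which cells of the whole gonad carried the RNA of these factors was not tested. Pik3cd was higher by 1.92 (limma adjusted p = 0.000403).

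Among genes lower in testes were 4 of the 5 tested cytokines and chemokines, with Ccl3, named after its values were seen, at -1.55 (limma adjusted p = 0.00072). Ccl4 was among them but was above background in only 1 of 3 testes, so that the size of its difference is not given. The ligands of the receptors described above went separate ways. Il34, the second ligand of Csf1r, stood at -3.42, -3.47 and -3.15 in the testes and -1.14, -1.59 and -1.34 in the control ovaries, a difference of -1.99 (SE 0.16, limma adjusted p = 5.24e-06). Csf1 itself differed by 0.28 (limma adjusted p = 0.277), and Cx3cl1, which encodes fractalkine, by 0.40 (limma adjusted p = 0.0297), under 1.5-fold. In DKO ovaries these 3 ligands differed from control ovaries by -0.01, -0.07 and 0.21, with adjusted p of 0.305 to 0.986 in limma. H2-Ab1 was lower in testes by -3.26, Cd83 by -1.42, Ms4a7 by -0.61 and the bridging ligand Gas6, which links dying cells to phagocytes, by -0.90, with limma adjusted p of 1.29e-06, 4.93e-05, 0.000463 and 0.00028. The call of Ms4a7 was lost without control testis 3 (-0.58). The class II regulator Ciita, named after its values were seen, was above background in the 3 testes and in 0 control ovaries, and was at least 2.65-fold higher in testes by the bound the background sets (limma adjusted p = 0.0015).

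Markers of other cell types were counted beside these values, 44 genes tested of 49 on 8 lists. Between DKO and control ovaries 0 of 7 endothelial and 0 of 5 lymphoid and mast cell genes passed the limma test at an adjusted p under 0.05 and 1.5-fold, and 0 of either had an unadjusted p under 0.05. Among 8 erythroid genes 2 fell, among them Hbb-y by 1.15 on the log2 scale (limma adjusted p = 0.0022), with values from only 2 control ovaries. Of the 8 erythroid genes, 6 had an unadjusted p under 0.05 in that comparison. Summed on a linear scale, 7 erythroid genes, without Hbb-y, stood at 439 to 564 in control ovaries, 353 to 368 in DKO ovaries, 326 to 440 in Smad4 (Stella) ovaries and 299 to 342 in testes. The 7 endothelial genes summed to 15.2 to 17.5 in control ovaries, 15.6 to 18.4 in DKO ovaries, 18.2 to 19.4 in Smad4 (Stella) ovaries and 14.6 to 18.3 in testes. Among 6 germ cell genes 3 rose in DKO ovaries, Pou5f1 by 2.32, Dppa3 by 2.33 and Tdrd1 by 1.38 (limma adjusted p = 0.0020, 0.0033 and 0.0048). Of the pregranulosa, Sertoli, Leydig and mesonephric genes, 0 passed that test between DKO and control ovaries, and 1 pregranulosa and 1 mesonephric gene had an unadjusted p under 0.05. The 5 lymphoid and mast cell genes summed to 0.147 to 1.17 in control ovaries and 0.180 to 0.891 in DKO ovaries. Cpa3, one of the 5, set the upper ends, with levels from -8.06 to 0.07 in control ovaries and from -4.44 to -0.33 in DKO ovaries. The 8 leukocyte genes summed to 1.07 to 1.77 in control ovaries, 1.47 to 1.70 in Smad4 (Stella) ovaries, 1.88 to 2.57 in DKO ovaries and 1.82 to 2.13 in testes. Coro1a, one of the 8, weighed on these sums, with means of -2.56 (SD 1.70) in control ovaries, -0.72 in DKO ovaries and -0.15 in testes. Its 2 probes gave 2.76 and 0.91 for DKO against control ovaries, and 3.49 and 1.32 for testes against control ovaries. The median log2 difference of the 8 genes from control ovaries was 0.30 in DKO ovaries and -0.17 in testes. Between testes and control ovaries, 5 of 8 erythroid genes and the endothelial gene Kdr (by -0.87, limma adjusted p = 0.0047) were lower, 3 germ cell genes were higher and 1 lower, 4 of 5 Sertoli and 4 of 4 Leydig genes were higher, and 5 of 5 pregranulosa and 2 of 4 mesonephric genes were lower. The Leydig gene Cyp11a1, not above background in control ovaries, was at least 158-fold higher in testes, and the pregranulosa gene Foxl2, not above background in testes, exceeded its testis level at least 3.97-fold in control ovaries (limma adjusted p = 2.17e-08 and 1.78e-06). The part of blood, vessel, germ, pregranulosa, Sertoli and Leydig cell RNA in the differences of the macrophage genes and of the listed genes was not tested.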

How the data were processed

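RNA of E14.5 gonads was hybridised to 12 single-colour Agilent arrays, and groups were taken from the labels. The authors deposited the Feature Extraction 11.0.1.1 output, whose processed intensity is corrected for background but not scaled, and a value list that proved to be the same intensity, rounded and not on a log scale. From the deposited intensity, log2 values minus the 75th percentile of the 43379 spots that were not controls were computed for each array. Outlier spots were dropped and spots of a probe averaged. A probe counted as well above background where no more of its spots failed than passed. Probes that did so throughout a group were used, 27311 of 41174, and gave 18844 genes, each the mean of its probes. Symbols were updated through RefSeq accessions for 27050 probes, and probe coordinates are mm9. The number of arrays limits the precision.

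The comparisons used limma 3.58.1 under R 4.3.3 (with the package data.table at version 1.17.8), with 1 model over 12 arrays and Benjamini-Hochberg adjustment over all genes. Calls needed 1.5-fold and an adjusted p under 0.05. Tested on simulated data over 18812 genes, changes of 1 on the log2 scale were called in 56% (DKO against control ovaries), 61% (Smad4 (Stella) against control), 72% (testes against control) and 62% (DKO against Smad4 (Stella)), and changes of 2 in 91%, 90%, 92% and 90%, with 8, 12, 8 and 9 false calls. The simulation changed only a small share of the genes, with independent normal noise and no slide effect. Its rates hold for that setting and do not give the power of the real comparisons. The members and lists were chosen with earlier results of these data known. Named genes were the 10 members, called genes of the lists (up to 12 per comparison by smallest p), defining markers of other cell types and the 10 genes most like the members in each ranking. Alternatives were quantile normalization, the deposited table without scaling, normexp with an offset of 50, no filter, the brightest probe, slide or replicate number as a block, only the groups compared, a 2-fold threshold, each array left out in turn and the methods' t-test. Where a gene was at background throughout a group, the lowest signal above background on each array gave the bound. Some genes that the rule would name are not reported here.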

Additional observations from a re-analysis of the deposited data

How the results depend on the processing

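The median differences of the 10 macrophage genes kept their size within the spread between arrays under quantile normalization, no filter, the brightest probe and only the groups compared. In the deposited table without scaling they were 0.51 for DKO against control, 0.45 for Smad4 (Stella) against control and -0.031 for DKO against Smad4 (Stella) ovaries, where the median of all genes moved to 0.19, 0.40 and -0.23. Relative to all genes they were then 0.33, 0.05 and 0.20. With normexp they were 0.43 for both comparisons of DKO ovaries, or 0.17 and 0.15 above all genes. With the slide as a block they were 0.45 for DKO against control, 0.30 for Smad4 (Stella) against control, a value reached through groups on other slides, and -0.16 for testes against control ovaries. Leaving out each array in turn gave 0.21 to 0.41 for DKO against control, -0.04 to 0.06 for Smad4 (Stella) against control, -0.11 to 0.06 for testes against control and 0.17 to 0.29 for DKO against Smad4 (Stella) ovaries.

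Of the 76 other macrophage genes, 7 were called between DKO and control ovaries, and this became 3 without scaling, 2 with normexp, 4 with only the groups compared, 3 at 2-fold and 2 by the methods' t-test after adjustment, with 6 to 9 when 1 array was left out. The 27 calls for testes became 16 without scaling, 7 with normexp and 17 at 2-fold, with 22 to 24 when 1 array was left out. The 6 calls for DKO against Smad4 (Stella) ovaries became 2 without scaling, 0 with normexp, 2 of 89 without the filter, 1 with the slide as a block and 1 by the t-test after adjustment, with 2 to 10 when 1 array was left out. For Smad4 (Stella) against control ovaries the count was 0 in every setting run, including each left-out array, except the unadjusted t-test with 2. Nr1h3 turned from -1.03 to 0.36 with normexp between DKO and Smad4 (Stella) ovaries. The causes were not tested. For single listed genes, 331 values kept their call, 100 lost it and 1 reversed.

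Same-numbered arrays of different groups did not deviate together, with correlations of -0.18 to 0.15 over 18 pairs, 2 of them over 0.1. With the replicate number as a block the median differences stayed at 0.33, 0.03, -0.02 and 0.21, and the calls of C3 in both comparisons of DKO ovaries and of Nr1h3 were lost. Depth is not defined on arrays, and the dimmest genes, such as Cx3cr1 in control ovary 2, are limited by background.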
